A study of Homo sapiens with 8 samples.

Results

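The genes described here code for the subunits of integrins, laminins and collagens. They were chosen by name: protein-coding genes of the RefSeq table of GRCh38 with a span under 500 kb and a symbol of the integrin (ITGA or ITGB), laminin (LAMA, LAMB or LAMC) or collagen (COL, number, A, number) pattern. The pattern matched 86 names, of which LAMA2 was 500 kb or longer and left out. Strand was listed for 61 of the other 85 genes, and these 61 genes carry the results. Called peaks were counted in a gene when the midpoint lay in its span on its strand, which gave 3943 of the 1118316 called peaks of the series. The 4 names ITGB1BP1, ITGB1BP2, ITGB3BP and ITGBL1 match the pattern, but their products are not integrin subunits.

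RBFOX2 eCLIP was performed in HEK293T, a line derived from human embryonic kidney. The protein RBFOX2 regulates splicing and binds GCATG in RNA, mostly in introns near the exons it controls. In eCLIP, ultraviolet light links protein to RNA, the protein is immunoprecipitated (IP), and the bound RNA is sequenced beside an input kept from the same lysate. There were 4 IP samples and 4 input samples, all of the same untreated line, each from cells exposed to 400 mJ per square centimetre at 254 nm, with 2% kept as input. Nothing in the labels says whether the replicates were separate cultures, so p-values measure only the spread between these samples, which may be technical.

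Integrins are receptors made of an alpha and a beta subunit that tie the cytoskeleton to the matrix outside the cell. Laminins are cross-shaped trimers of an alpha, a beta and a gamma chain that build basement membranes. Collagens are triple helices. Fibrillar collagens form the fibres of connective tissue, type IV and type XVIII collagens belong to basement membranes, FACIT collagens decorate fibres, and a few collagens span the cell membrane.

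Each of the 4 deposited lists holds peaks of 1 IP against its own input, with a log2 fold (IP over input) and a −log10 p per peak. Peaks counted as enriched had both a log2 fold of 3 or more and a −log10 p of 3 or more. The lists hold 267691 to 288305 called peaks, of which 2174 to 2389 were enriched. A −log10 p of 0 was listed for 80.2%, 66.3%, 68.2% and 81.8% of called peaks in replicates 1 to 4, so replicates 2 and 3 stand apart from replicates 1 and 4 in their p-values. Read depth is unknown. Values come in steps, so many peaks share the same fold.

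Sequence at these genes was at hand only around annotated start sites. The 4 stretches below were chosen because called peaks of at least 3 lists covered some of their bases. Each is 30 bases long, transcribed bases 21 to 50 of an annotated start from RefSeq (GRCh38.p14), written 5′ to 3′ on the strand of the gene, with bases under peaks of at least 3 lists in capitals.
ITGB1, chr10:32935509-32935538, minus strand: CTGGATTGGACTGATCAGTTCAGTTTGCTG
COL4A2, chr13:110307304-110307333, plus strand: GGGACACCAGGGCTCCGCGCTCCGCACTca
LAMB1, chr7:108003112-108003141, minus strand: cccGGAGCAGGGCGAGAGCTCgcgtcgccg
COL27A1, chr9:114155557-114155586, plus strand: ggccggcggggaggcagctTCCACCGCCCT
No peak over these stretches was enriched, and sequence under the enriched peaks was not used here. The ITGB1 stretch, at an annotated start inside the gene, lay under peaks of all 4 lists with log2 folds of 0.58, 0.59, 0.42 and −0.000497. The COL4A2 stretch lay under peaks of all 4 lists with log2 folds of −2.0, 0.59, 1.0 and −1.0, so the replicates disagreed in sign. The bases were searched for GCATG on the transcribed strand. None of the 15 start windows with a called peak in the first 50 transcribed bases held it there, and 2 of the 81 start windows of these genes did (2.47%), against 1234 of 35097 start windows in all (3.52%). A match is a description of letters and not of a site, and no match says only that these letters are not in this window.

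Of the 61 genes, 40 had a called peak, 34 of them in all 4 lists and 6 in 1 to 3 lists. The other 21 had none. Among those 21 were COL11A1 (a fibrillar collagen), COL12A1 and COL16A1 (FACIT collagens), COL6A3 (a chain of the microfibrillar type VI collagen), COL15A1, COL17A1, LAMB3 (the beta chain of laminin-332), ITGB6 and ITGAM (the alpha chain of a leukocyte integrin). RNA levels were not analysed here, and their part in the result was not tested.

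Enriched peaks numbered 1, 1, 3 and 2 in replicates 1 to 4, 7 in all, and lay in 3 genes: COL4A5, COL18A1 and ITGAE. Over the series, 0.818% of called peaks were enriched. At least 1 enriched peak was held by 8.57% of the 10321 genes with a called peak, and by 3 of the 40 here, which is near that share. A region enriched in all 4 replicates was held by 2.11% of those 10321 genes and by 0 of the 40. The number of called peaks in a gene goes with this share: of other genes with at least 10 and under 50 called peaks 3.71% held an enriched peak, against 1 of 14 here, of those with at least 50 and under 200 called peaks 11.8% did, against 1 of 15, and of those with at least 200 and under 1000 called peaks 29.9% did, against 1 of 5. These counts of 1 gene lie above the share of other genes in the first class and below it in the other two.

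In each list, a smaller share of called peaks was enriched in these genes than in the other protein-coding genes under 500 kb. The share was 0.109%, 0.0984%, 0.287% and 0.207% here and 0.902%, 0.895%, 0.831% and 0.801% in the other genes, so the sets did not overlap. The mean difference was −0.682 ± 0.132 percentage points (SD, n = 4), lower in 4 of 4 lists. An exact two-sided sign-flip permutation test gave p = 0.13, the smallest 4 lists allow, and 0.188 after Benjamini-Hochberg adjustment over the 9 measures compared. The difference lies beyond the spread between lists, but this design cannot reach 0.05. That spread is over lists holding the same genes and not over genes. By gene, 3 of the 40 with a called peak held an enriched peak, near the 8.57% over the series. The smaller share of peaks is therefore not shown to be a trait of most of these genes.

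The low end of the distribution was thinner too. A log2 fold below −0.5 was found for 17.5% ± 1.81 of called peaks here and 23.9% ± 0.554 in the other genes (SD, n = 4), lower in 4 of 4 lists (exact sign-flip permutation p = 0.13, adjusted 0.188). The mean log2 fold of called peaks was 0.24 ± 0.08 here and 0.18 ± 0.03 in the other genes (SD, n = 4), higher in 4 of 4 lists (exact permutation p = 0.13, adjusted 0.188). COL18A1 alone gave 541 of the 3943 peaks here, with means of 1.02, 0.71, 0.71 and 0.84 in replicates 1 to 4. The 3 genes with the most called peaks gave 1323. All lists hold the same genes, so the spread between lists is not a spread over genes. The higher mean is therefore not shown to be a trait of most of these genes. Peaks with a log2 fold above 0.5 made up 31.9% ± 4.55 here and 32.2% ± 1.36 elsewhere (difference −0.331 ± 3.31 percentage points, exact permutation p = 0.875), lower in 3 lists and higher in 1. Thus the genes had smaller shares of peaks both among the enriched and below −0.5, while the share above 0.5 differed by less than the spread between lists.

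**Figure D1:**
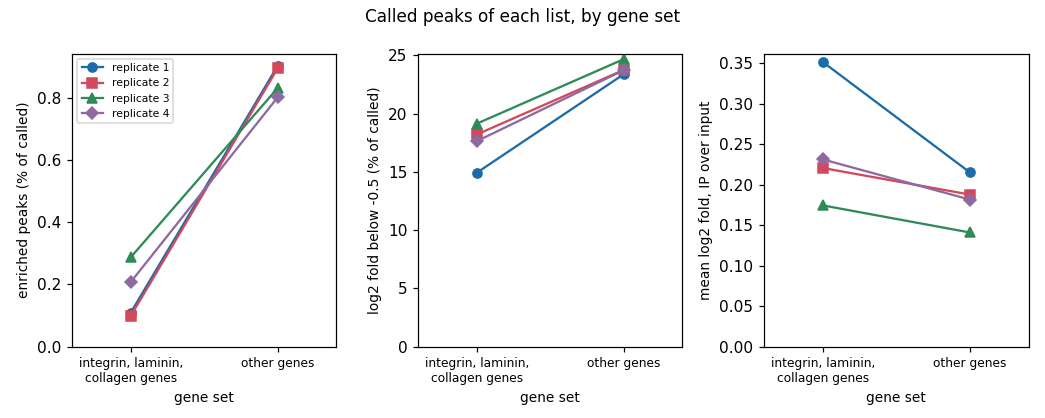
Called peaks of each list in the integrin, laminin and collagen genes (left of each panel) and in other protein-coding genes (right): percent enriched, percent with a log2 fold below −0.5, and mean log2 fold of IP over input, with 1 line per replicate. All 4 lines rise in the first and second panels and fall in the third.

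COL4A5 codes for the alpha 5 chain of type IV collagen, which is needed in the kidney filter. Called peaks numbered 30, 32, 39 and 38 in replicates 1 to 4. The enriched peaks were at chrX:108669124-108669256 in replicate 1 (log2 fold 3.91, −log10 p 3.29) and chrX:108669171-108669259 in replicate 3 (3.70 and 3.01), both on the plus strand, 28.4 and 28.3 kb from the gene end. They overlap. Replicate 4 had peaks over them with a log2 fold of 3.32. In replicate 2 the peak at chrX:108669171-108669252, which lies over both, had 1.42, and its neighbour at chrX:108669082-108669144, which overlaps the replicate 1 peak, had 2.59.
The peaks within 1000 nt of the enriched ones lay high as a set: the 34 peaks there had a mean log2 fold of 2.52 ± 0.14 (SD, n = 4 lists), while the other 105 peaks of the gene had 0.12 ± 0.07. The window was drawn around the enriched peaks, so this is a description without a test. No peak in the window had a log2 fold below 0. With the gene cut into 5 equal parts from start to end, the mean log2 fold was 1.30 ± 0.04 in the last part and −0.28 ± 0.24 in the first.

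COL18A1 codes for the alpha chain of type XVIII collagen, whose C-terminal fragment is endostatin, an inhibitor of vessel growth. It held the most called peaks of the 61 genes (131, 140, 130 and 140). Enriched peaks lay at chr21:45471091-45471264 in replicate 2 (log2 fold 3.81, −log10 p 3.29) and chr21:45471001-45471088 in replicate 4 (3.81 and 3.01), on the plus strand. They lie close together but do not overlap. Within 1000 nt of them, 28 peaks had a mean log2 fold of 1.79 ± 0.57, against 0.77 ± 0.15 for the other 513 (SD, n = 4 lists). The peaks outside the window had means of 0.65 to 0.95 by list, against 0.03 to 0.18 for those outside the window of COL4A5.

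ITGAE codes for the alpha E integrin, which pairs with beta 7 on lymphocytes and binds E-cadherin. Its 46 called peaks all lay in the last of 5 equal parts of the gene. Enriched peaks were found at chr17:3722531-3722610 in replicate 4 (log2 fold 4.09, −log10 p 3.84) and, in replicate 3, at chr17:3722533-3722593 (3.52 and 4.98) and chr17:3722594-3722612 (4.0 and 3.84), all on the minus strand. This stretch also lies in the annotated span of P2RX5, an ATP-gated channel, whose strand was not listed, so the transcript the reads came from cannot be told apart. Of the 7 enriched peaks, 4 lay in no other annotated span. The partner gene ITGB7 had no called peak on its own strand.

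**Figure D2:**
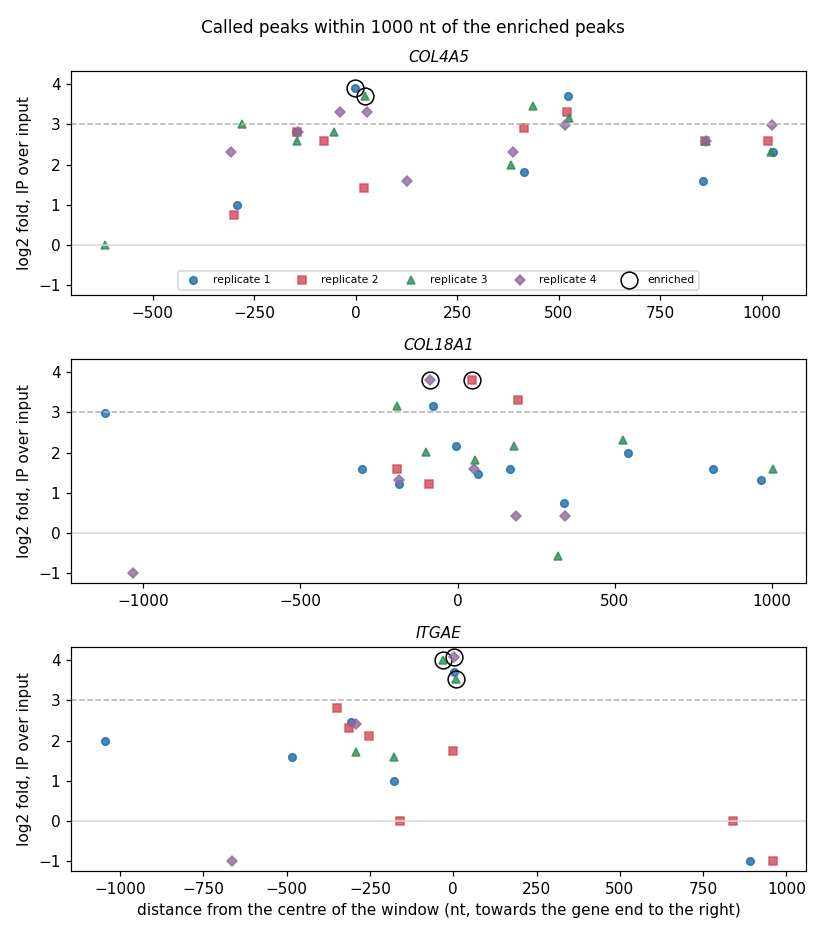
Log2 fold of IP over input for every called peak within 1000 nt of the enriched peaks in COL4A5, COL18A1 and ITGAE, against distance in nt from the centre of the window, by replicate. Circles mark enriched peaks, and the dashed line is a log2 fold of 3. COL4A5 peaks stay at or above 0 across the window, and the replicate 2 peak at the centre of ITGAE sits below the others.

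The enriched peaks of different replicates overlapped in part. Of the 7, 5 overlapped an enriched peak of another replicate (71.4%), namely those of COL4A5 and ITGAE. They lay at a single place in each of these genes, so the peaks are not independent and no interval is given. By list the share was 100%, 0%, 100% and 50%. Each overlap counts in both lists, and with so few enriched peaks it was not tested. Replicate 3 took part in every overlap, and without it 0 of 4 enriched peaks overlapped another.

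Further peaks lay near the limits. A log2 fold above 3.1 with a −log10 p under 3 was found for 16 peaks. Of these, 6 were in COL4A5 and 5 in COL18A1, with 1 each in COL25A1, COL6A2, ITGAE, LAMA5 and LAMB2. Their highest −log10 p was 2.74. In 2 peaks the limit on p was met and that on fold was not: a LAMA5 peak of replicate 3 (log2 fold 2.76, −log10 p 4.72) and an ITGAE peak of replicate 1 (2.46 and 3.27).

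To compare regions over all replicates, called peaks of the 4 lists were merged, and the mean log2 fold of each region with a peak in every list was tested against 0 with limma. Each list entered a region by its peak with the highest −log10 p, a choice that tends to favour high folds in regions with many peaks. Over the series, 20.6% of 49493 regions were higher in IP and 1.77% lower. The integrin, laminin and collagen genes held 140 such regions in 26 genes, of which 28 (20%) were higher and 1 lower. Their median mean log2 fold was 0.75, against 0.50 over all regions, and 4 regions (2.86%) had a mean of at least 3, against 3.18%. The share of calls here is thus near that of the series. By the same limma test on 3 lists, 8 regions here were higher without replicate 3 and 0 without replicate 1, 2 or 4, while 41 to 53 had an unadjusted p under 0.05. The series as a whole had 2402 higher regions without replicate 3 and 0 without replicate 1, 2 or 4. The smallest limma adjusted p of any region in the series was 0.0488 without replicate 3. It was 0.0509, 0.0501 and 0.0509 without replicates 1, 2 and 4. Fits on 3 lists thus barely reach the threshold of 0.05, and these counts do not set replicate 3 apart.

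The 28 higher regions lay in 9 genes: 10 in COL18A1, 6 in COL4A5, 3 in LAMA5, 2 each in COL27A1, ITGAE and ITGB3BP, and 1 each in LAMB2, COL25A1 and ITGA8. In COL4A5 they ran from 229 to 233 kb behind the gene start, with means of 2.08 to 3.43. In COL18A1 they were spread from 22.5 to 87.7 kb, with means of 1.34 to 3.49.

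For each of the 12 genes that either held enriched peaks or were among the 10 with the most called peaks, 1 region is given, the one whose lowest replicate was highest, with ties going to the region of lowest coordinate. In COL18A1 it was chr21:45470888-45471358, with log2 folds of 3.17, 3.81, 3.17 and 3.81 (3.49 ± 0.37, SD, n = 4, limma adjusted p = 0.00438). In COL4A5 it was chrX:108669676-108669757, with 3.70, 3.32, 3.17 and 3.0 (3.30 ± 0.30, limma adjusted p = 0.00438). In COL4A5 the 4 values come from peaks of an 82 nt region. In COL18A1 they come from peaks at different places in a merged region of 471 nt. At the enriched peak of replicate 4 there, the peaks of replicates 1, 2 and 3 had 3.17, 1.22 and 2.0. Inside the enriched peak of replicate 2, those of replicate 1 had 2.17 and 1.46, and replicates 3 and 4 had 1.81 and 1.58. The values of 3.17 or more in every list were thus not at 1 shared place.
In ITGAE the region chr17:3722527-3722614 had 3.70, 1.74, 3.52 and 4.09 (3.26 ± 1.04, limma adjusted p = 0.0103), with replicate 2 the low one. LAMA5 codes for the alpha 5 chain of laminin, found in most adult basement membranes. Its region chr20:62324807-62325324 on the minus strand had 2.0, 2.91, 2.76 and 2.0 (2.42 ± 0.48, limma adjusted p = 0.00759). This too is a merged region, of 518 nt, and the replicate 3 peak covered only chr20:62325017-62325171. The LAMA5 values need not lie at 1 shared place.
COL25A1 codes for a membrane collagen of neurons that was found in amyloid plaques. Its region chr4:108819011-108819142 on the minus strand had 1.58, 2.32, 2.32 and 3.0 (2.31 ± 0.58, limma adjusted p = 0.0097). The gene also held the one lower region, chr4:109302010-109302068, 0.619 kb behind the gene start, with −2.32, −1.58, −2.32 and −1.0 (mean −1.81 ± 0.64, limma adjusted p = 0.0198). The gene thus had a low region at its start and a high one near its end.
ITGB3BP, a centromere protein first named for binding the beta 3 integrin tail, had a region at chr1:63440784-63441110, 0.177 kb from the gene end, with 1.32, 1.59, 1.59 and 3.0 (1.87 ± 0.76, limma adjusted p = 0.0234). COL27A1, a fibrillar collagen of cartilage, had 2.32, 2.0, 1.0 and 1.0 at chr9:114211114-114211383 (1.58 ± 0.68, limma adjusted p = 0.0308).
The regions of the other 5 genes did not pass. ITGB1 codes for the beta 1 subunit, shared by the most integrins. Its region chr10:32942197-32942290 had 2.81, 0.00141, 2.59 and 2.81 (2.05 ± 1.37, limma adjusted p = 0.060), high in every replicate but the second. LAMC1 (the gamma 1 chain), LAMA3 (the alpha 3 chain of skin laminin), COL13A1 (a membrane collagen of the nerve-muscle junction) and COL4A2 (the alpha 2 chain of type IV collagen) had means of 1.08 ± 0.95, 0.75 ± 0.96, 0.50 ± 1.0 and 0.40 ± 1.14, with limma adjusted p between 0.136 and 0.596. In these 4 genes other regions tied on the lowest replicate. The tied region of COL13A1, chr10:69948679-69948888, had 1.58, 1.0, 1.59 and −0.000497 (1.04 ± 0.75, limma adjusted p = 0.105), and that of LAMA3 had a mean of 1.12 ± 1.03 (limma adjusted p = 0.142). The tied regions of LAMC1 (0.59 ± 0.54) and COL4A2 (means of −0.25 to 0.000205) did not pass either.

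**Figure D3:**
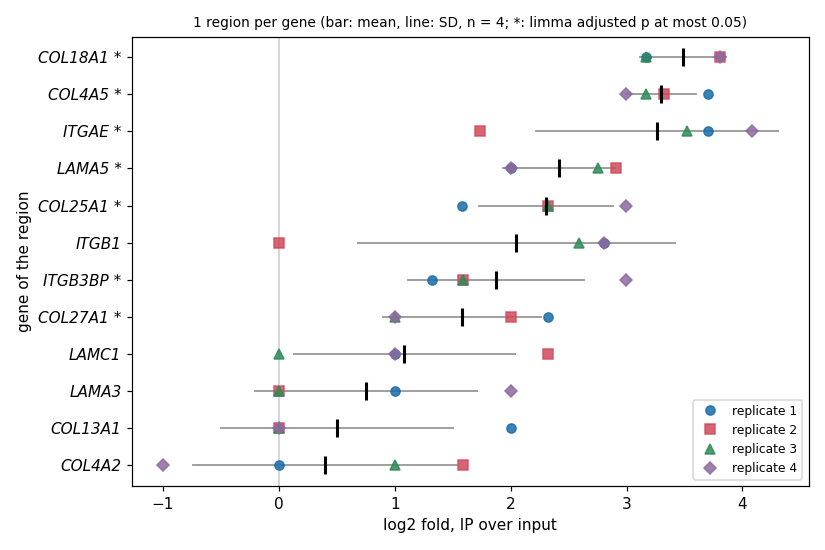
Log2 fold of IP over input in each replicate for 1 region per gene, with the mean (bar) and SD (line), n = 4; an asterisk marks a limma adjusted p of at most 0.05. COL18A1, COL4A5 and ITGAE lie highest, and the ITGB1 and COL13A1 regions each have 1 replicate far from the other 3.

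By role, basement membrane collagens had the highest mean log2 fold. Their 1101 called peaks had a mean log2 fold of 0.64, 0.46, 0.41 and 0.51 in replicates 1 to 4 (0.51 ± 0.10, SD, n = 4). By limma, 16 of their 56 regions were higher (28.6%), against 20.6% of all regions of the series. The 761 peaks of laminin chains had 0.22 ± 0.13, with 4 of 27 regions higher. Fibrillar collagens had 530 peaks, 0.19 ± 0.15 and 2 of 11. Transmembrane collagens had 700 peaks, 0.08 ± 0.06, with 1 region higher and 1 lower of 20. COL18A1 alone gave 541 of the 1101 basement membrane peaks. The 16 higher regions of this group were 10 in COL18A1 and 6 in COL4A5. COL4A1, COL4A2, COL4A6 and COL7A1 had 0 higher of 5, 8, 1 and 3 regions, and the gene mean of COL4A2 was −0.14 ± 0.08. The high values of the group were thus those of COL18A1 and COL4A5 and were not shared by all its genes.
Integrin alpha chains had 334 peaks and 0.12 ± 0.13, with 3 of 8 regions higher. Integrin beta chains had 233 peaks and 0.12 ± 0.12, with 0 of 9 regions higher by limma after adjustment, 1 with an unadjusted p under 0.05, and a median region mean of 0.02. Type VI and the other network collagens had 90 peaks, 0.39 ± 0.10 and 1 region, not called, and FACIT collagens had 2 peaks. Over the series 20.6% of regions were higher. With so few regions, the counts of the alpha and beta chains are not read as a difference between them. The groups were not tested against each other.

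Gene by gene, the mean log2 fold of called peaks was compared among the 28 genes with at least 5 called peaks in every list. The median of the gene means was 0.14, against 0.06 over 6831 genes by the same rule. COL18A1 (0.82 ± 0.15), LAMB2 (0.81 ± 0.44), LAMA5 (0.75 ± 0.15), COL4A5 (0.71 ± 0.08), COL6A2 (0.54 ± 0.20) and ITGAE (0.52 ± 0.39) were highest. COL4A2 (−0.14 ± 0.08), ITGAV (−0.17 ± 0.58) and ITGB1BP1 (−0.27 ± 0.15) were lowest. Of the 27 steps between neighbours in this order, 26 were smaller than the SDs of the genes (n = 4 lists), so neighbours cannot be ordered. LAMB2, the beta 2 chain of laminin, was carried by replicates 1 (1.21) and 3 (1.08) more than by replicates 2 (0.22) and 4 (0.73).
The paired type IV collagen genes, picked after their values were seen, share a start region and run in opposite directions. COL4A5 had gene means of 0.66, 0.62, 0.79 and 0.77 and its neighbour COL4A6 0.23, 0.19, 0.00 and −0.06, without overlap. The 105 COL4A5 peaks outside the window had 0.11, 0.03, 0.18 and 0.17, which overlap the COL4A6 values. COL4A1 had 0.73, 0.25, −0.04 and 0.21, and COL4A2 −0.09, −0.08, −0.14 and −0.26, without overlap. These pairs were not tested.

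**Figure D4:**
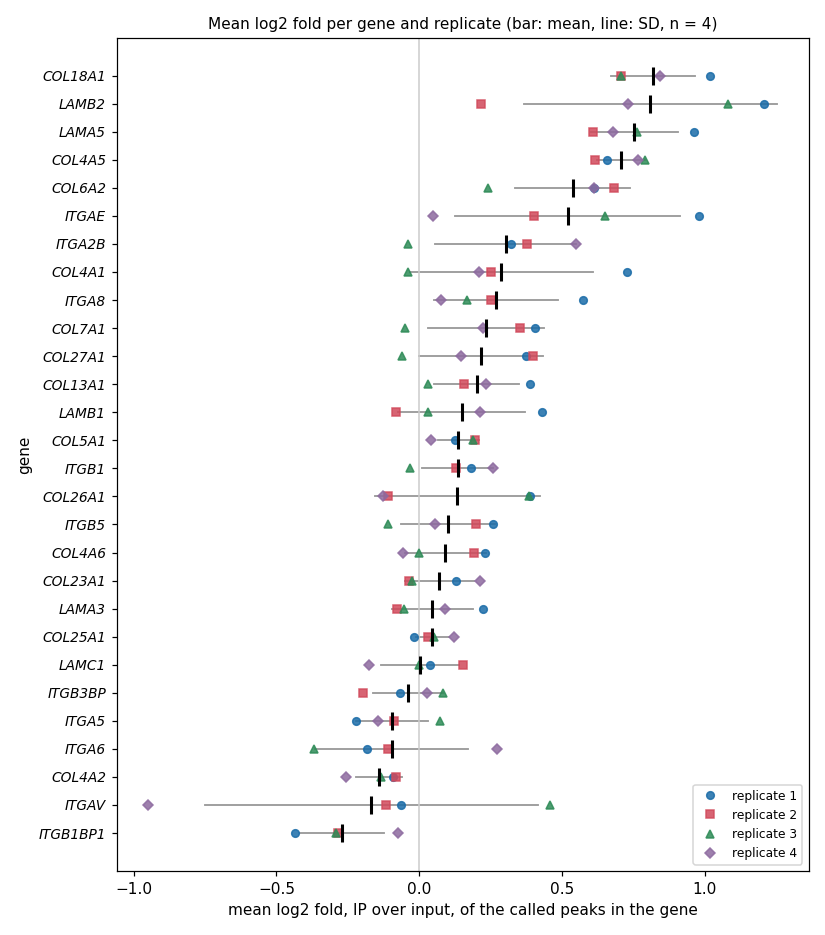
Mean log2 fold of IP over input of the called peaks in each of 28 genes, by replicate, with the mean (bar) and SD (line), n = 4 lists, from COL18A1 at 0.82 to ITGB1BP1 at −0.27. The SD lines of neighbouring genes overlap along most of the order.

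Along the genes, called peaks were placed as follows. The first 1000 nt held 3.01% ± 0.408 of called peaks here and 5.81% ± 0.202 in other genes, and the last 1000 nt 2.39% ± 0.213 and 3.56% ± 0.0753 (SD, n = 4). Both were lower in 4 of 4 lists (exact permutation p = 0.13, adjusted 0.188). With spans cut into 5 equal parts from start to end, 21.9%, 19.1%, 17.5%, 15.7% and 25.7% of called peaks lay here, against 24.4%, 18.4%, 17.8%, 18% and 21.4% in other genes. The share in the last 1000 nt was thus smaller here, while that in the last part of the span was larger. The mean log2 fold in the 5 parts was 0.10, 0.27, 0.12, 0.34 and 0.37 here and 0.13, 0.17, 0.19, 0.23 and 0.20 in other genes. It was thus lower here in parts 1 and 3 and higher in the others. Of the 1015 peaks here in the last part, 84 were COL4A5 peaks with a mean of 1.30 ± 0.04. These means were not tested.

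Strand matters for these genes because neighbours run against them. The spans of the 61 genes held 226 called peaks on the opposite strand. COL10A1, the collagen of hypertrophic cartilage, had 0 called peaks on its own strand and 135 on the other, all inside the span of NT5DC1. COL4A4 had 3 and 14, the latter all inside RHBDD1, and ITGB7 0 and 3. No opposite-strand peak in these 3 genes was enriched. Of the 3943 peaks counted, 574 also lay in another annotated span.
The 24 genes without a listed strand had 317 called peaks on both strands together, in 13 genes. They include COL1A1, COL1A2 and COL3A1, the main collagens of connective tissue, of which COL1A1 had 31 peaks and the others none. COL6A1 had 64, LAMC3 56, ITGA3 36, COL2A1 31 and LAMA1 29. The 1 enriched peak lay in COL2A1, the collagen of cartilage, at chr12:47998622-47998725 on the minus strand in replicate 1 (log2 fold 3.81, −log10 p 3.01).
RefSeq lists 7 miRNA hairpins inside these genes. Only that of MIR711, in COL7A1, lay under called peaks, 2 in 1 list, with a log2 fold near 0.

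Other lists cover genes that work with these. The adhesion partners share ITGB1BP1 and ITGB1BP2 with the genes above. Adhesion partners link integrins to actin and signalling. Of 52 names, 42 had a listed strand and 38 a called peak, and 24 of 3949 called peaks (0.608%) were enriched, against 0.818% over the series. They lay in FLNA (16), an actin cross-linker that binds integrin tails, ACTN4 (6), BCAR1 (1) and FYN (1). FLNA held 2 regions enriched in all 4 replicates. The one at chrX:154355540-154355804 on the minus strand had highest log2 folds of 5.0, 5.09, 3.81 and 3.37 (4.32 ± 0.86, SD, n = 4), and that at chrX:154356646-154356816 had a mean of 4.19 ± 0.94. By limma 44 of 125 regions of adhesion partners were higher (35.2%) and 1 lower, against 20.6% higher over the series.
Collagen-modifying and secretion genes had 9 enriched of 1622 called peaks (0.555%), 8 in COLGALT1, which adds galactose to collagen, and 1 in PCOLCE, with 11 of 68 regions higher by limma. Other matrix genes had 0 enriched of 1764, with 2 of 48 regions higher. Beside these, 7 of 3943 called peaks (0.178%) were enriched in the integrin, laminin and collagen genes. The lists were not tested against each other.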

How the data were processed

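The authors deposited 1 peak list per IP library against its paired input. The 2 deposited values per peak were read, from their range, as the −log10 of a p-value and the log2 fold of IP over input; their scaling, peak caller and p-value test are not given in the sources used here. STAR 2.7.7a, cutadapt 3.2, UMI-tools 1.1.1 and GRCh38 are named in the submitters' processing notes. Gene spans came from the RefSeq table of GRCh38.p14 and strand from its start-window table. Coordinates are 1-based.

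Genes and lists were chosen with earlier results of these data known. Genes were named by a rule: all with enriched peaks in at least 2 replicates and the 10 with the most called peaks. Others were picked after their values were seen. Peaks overlapping by at least 1 nt on a strand were merged. A region took, per list, the peak with the highest −log10 p (ties to the longest). Where a list had more than 1 peak in a region, this tends to pick a high fold. It can raise the means and the number of higher calls, and how far it did was not tested. Regions with peaks in all 4 lists were fitted with limma 3.58.1 in R 4.3.3 (intercept only, eBayes, two-sided, Benjamini-Hochberg over 49493 regions, threshold 0.05). The fit was also run on simulated normal values. These lack the steps, ties and choice of peak of the real values, so that run does not cover them. Exact sign-flip permutations over 4 lists cannot go below p = 0.13. Python 3.11.15, numpy 2.4.6, pandas 2.3.3, scipy 1.17.1 and matplotlib 3.10.9 were used.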

Additional observations from a re-analysis of the deposited data

Results flagged for a closer look

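In 3 of 33 sets of 4 replicate values, 1 replicate lay far from the other 3. A chance rate of about 1 in 20 sets assumes continuous values without ties. The folds here come in steps, and the named regions were chosen by their lowest replicate. The 3 of 33 sets therefore cannot be set against that rate. The region of ITGB3BP had a log2 fold of 3.0 in replicate 4, against 1.32 to 1.59 in the others. The region of ITGB1 had 0.00141 in replicate 2, against 2.59 to 2.81. The region of COL13A1 had 2.0 in replicate 1, against values near 0, while the region of COL13A1 tied with it under the naming rule had 1.58, 1.0, 1.59 and −0.000497.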

How the results depend on the processing

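The mean of 1.75 enriched peaks per list became 0 at a −log10 p of at least 5, 1 without peaks in another annotated span, and 5.75 with 3.1 as the least log2 fold and any p (chosen after seeing the data, as was adding the genes without a listed strand). The share of enriched peaks stayed below that of other genes in every setting run. No region was enriched in all lists used, whether 4 or 3, in any setting run. At a −log10 p of at least 5 no peak here was enriched, so that count could only be 0. The overlap of enriched peaks ranged from 0% to 83.3% when 1 replicate was left out. Higher regions fell from 28 to 9 in a test against a log2 fold of 1, and to between 0 and 8 without 1 replicate; the 1 lower region fell to 0 against a log2 fold of 1 and to 0 in each fit without 1 replicate. The fits without 1 replicate have fewer lists and more regions. Their smallest limma adjusted p over the whole series was 0.0488 to 0.0509, so they barely reach the threshold. Of 83 alternatives over the 12 named regions, 52 kept side and direction and 29 lost the call, 3 of these outside the fits without 1 replicate. In 1 the call was gained: ITGB1, limma adjusted p = 0.00536 under robust eBayes (0.060 before). The COL4A2 region, not called, turned sign without replicate 2; its limma adjusted p ranged from 0.286 to 1.0 with 1 replicate left out. No paired analysis was possible because the IP and the input of a replicate enter 1 value per peak together. The GCATG share of regions was not run, since it needs a genome. Depth is unknown, so small folds cannot be weighed by counts.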
